A study of Mus musculus with 2 samples.

Results

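Densely covered CpG neighbourhoods are the stretches of the genome in which reduced representation bisulfite sequencing (RRBS) read many CpGs side by side. A covered cytosine was counted as a member when its CpG had at least 15 other covered CpGs within 100 bp on the same chromosome, with the cytosines of both strands merged to 1 CpG. This rule uses coverage and position and no methylation value. It kept 140445 of 826937 covered positions, which belonged to 120633 of 756270 CpGs. Members had a median of 18 other covered CpGs within 100 bp and at most 42, whereas the median over all covered CpGs was 5. Just inside the limit, positions with 15 others averaged 9.13 % methylation in wt and 5.96 % in βerko cells, and just outside, positions with 14 others had 9.53 and 6.51 %.

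The study compared mouse embryonic fibroblasts (MEFs) of C57BL/6 mice that were wildtype (wt) with MEFs that were ESR2 -/-, which lack oestrogen receptor β (βerko). Each cell type is represented by 1 RRBS library, made from the pooled genomic DNA of 3 batches, and neither was given a treatment. There are therefore no replicates, and every difference below is one between these 2 libraries, in which genotype, cell line and library cannot be told apart. Methylation is given as the percentage of reads at a cytosine that were still read as C after bisulfite treatment.

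In mammals, DNA is methylated mostly at CpGs. Most of the genome is poor in CpGs and methylated, while CpG islands, short stretches rich in C, G and CpG that often hold promoters, are usually free of methylation. Methylated islands are known from imprinted genes, the inactive X chromosome, germline genes silenced in somatic cells, and developmental genes in cultured and tumour cells. RRBS cuts DNA with MspI at CCGG and therefore reads such CpG-rich stretches best, but bisulfite does not separate 5-methylcytosine from 5-hydroxymethylcytosine.

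The sequences of 5 neighbourhoods are shown to make clear how closely the measured CpGs lie and how the kinds of neighbourhood described below look. Neighbouring member CpGs no more than 100 bp apart were joined to a dense run, whose level is the mean over its CpGs. Bases are those of the reference NCBIM37 (mm9), plus strand, 5′ to 3′, and capitals mark the CpGs of the run. The first is the whole run with the largest decrease, at chr13:31902972-31903144, which is intergenic and lies 4457 bp from the start of Foxc1, a forkhead transcription factor gene. All 21 CpGs in its 173 bases were measured. The next is the whole run at chr6:88149710-88149824 in a coding exon and intron of Gata2, the run with the second largest increase. The third shows 300 bases at chr5:144015375-144015674 in a coding exon of the zinc finger gene Zfp316, methylated in both libraries. The fourth shows 300 bases at chr17:39982748-39983047, an intergenic run 2494 bp from the nearest annotated transcript start that was partly methylated in both. The last shows 300 bases at chr5:116181847-116182146, upstream of Ccdc64, in one of the 3 runs with the most CpGs.
Foxc1 run: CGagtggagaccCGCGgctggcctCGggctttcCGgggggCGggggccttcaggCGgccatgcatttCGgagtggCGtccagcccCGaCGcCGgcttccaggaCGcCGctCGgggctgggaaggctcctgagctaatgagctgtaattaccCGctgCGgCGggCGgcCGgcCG
Gata2 run: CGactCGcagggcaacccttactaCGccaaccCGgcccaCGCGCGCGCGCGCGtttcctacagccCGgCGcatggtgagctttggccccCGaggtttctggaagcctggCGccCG
Zfp316 run: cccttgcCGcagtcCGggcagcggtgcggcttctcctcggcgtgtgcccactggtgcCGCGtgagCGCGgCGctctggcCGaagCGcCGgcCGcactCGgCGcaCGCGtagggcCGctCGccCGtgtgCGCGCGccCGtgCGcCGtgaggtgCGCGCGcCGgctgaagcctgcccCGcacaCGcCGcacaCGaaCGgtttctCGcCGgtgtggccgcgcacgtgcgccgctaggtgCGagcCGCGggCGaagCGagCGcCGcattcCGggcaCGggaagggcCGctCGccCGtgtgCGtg
Chromosome 17 run: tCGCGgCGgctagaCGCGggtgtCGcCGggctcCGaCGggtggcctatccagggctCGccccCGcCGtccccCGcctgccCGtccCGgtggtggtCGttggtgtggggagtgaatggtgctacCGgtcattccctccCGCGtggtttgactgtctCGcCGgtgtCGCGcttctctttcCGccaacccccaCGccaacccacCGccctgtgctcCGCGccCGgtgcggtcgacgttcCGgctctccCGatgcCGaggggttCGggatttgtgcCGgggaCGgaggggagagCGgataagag
Ccdc64 run: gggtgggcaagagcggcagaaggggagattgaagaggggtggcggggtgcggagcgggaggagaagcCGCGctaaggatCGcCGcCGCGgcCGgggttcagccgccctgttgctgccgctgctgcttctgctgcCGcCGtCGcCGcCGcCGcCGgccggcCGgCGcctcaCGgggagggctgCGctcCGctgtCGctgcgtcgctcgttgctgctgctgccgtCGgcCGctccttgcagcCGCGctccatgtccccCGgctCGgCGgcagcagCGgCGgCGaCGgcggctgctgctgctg

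Members lay in CpG-rich sequence, as a rule on neighbouring CpGs requires. Within 100 bp on either side of a member CpG, the median G+C content was 76.6 %, the ratio of observed to expected CpGs 1.00, and the number of CpGs in the reference 29, of which a median of 71.4 % was covered. Over all covered CpGs the medians were 62.7 %, 0.694, 13 and 52.8 %. The same windows held a median of 4 CCGG sites around members and 2 around all covered CpGs. Promoters, taken as the 500 bp before and the 100 bp after a GENCODE transcript start, held 53.0 % of the member CpGs and 29.3 % of all covered CpGs. By feature, 32.1 % of member CpGs lay in untranslated exon sequence, 26.3 % in introns, 19.6 % in coding exons, 19.5 % between genes and 2.61 % in noncoding exons.

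Densely covered positions were mostly unmethylated in both libraries. In wt MEFs 87.2 % of them were below 20 % methylation (87.0 to 87.4 %, Wilson interval at 95 % confidence), and 91.8 % (91.6 to 91.9 %) were in βerko MEFs. A methylation value of exactly 0 was found at 66.0 % of members in wt and 70.1 % in βerko MEFs. The methylated minority was small. Above 80 % methylation lay 3.33 % of the members in wt (3.24 to 3.43 %) and 1.61 % in βerko MEFs (1.55 to 1.68 %), against 38.5 and 37.6 % of the positions outside dense neighbourhoods. The intervals cover the counting of positions only, and neighbouring positions share reads and are not independent. Between 20 and 80 % lay 9.46 % of members in wt and 6.61 % in βerko MEFs. Mean methylation of members was 8.45 % in wt and 5.36 % in βerko MEFs. Where a member CpG was covered on both strands, which was the case for 19812, the strands differed by less than 20 percentage points at 93.2 % in wt and 94.6 % in βerko MEFs.

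The level was lower the more neighbours were covered, with the largest step between 1 to 4 and 5 to 9 neighbours. Positions with no other covered CpG within 100 bp averaged 75.3 % in wt and 77.5 % in βerko MEFs, and those with 1 to 4 averaged 66.3 and 65.8 %. With 5 to 9 neighbours the means were 28.4 and 24.6 %, and with 10 to 14 they were 11.6 and 8.16 %. Within the members, the means still decreased from 9.03 and 5.75 % at 15 to 19 neighbours to 6.76 and 4.25 % at 25 or more. The sign of the difference between the libraries changed along this series, since subtracting wt from βerko gave a mean of 2.16 percentage points for isolated positions and -3.09 percentage points for members. The difference was not particular to members, as it was -3.78 points with 5 to 9 neighbours and -3.44 points with 10 to 14.

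**Figure D1:**
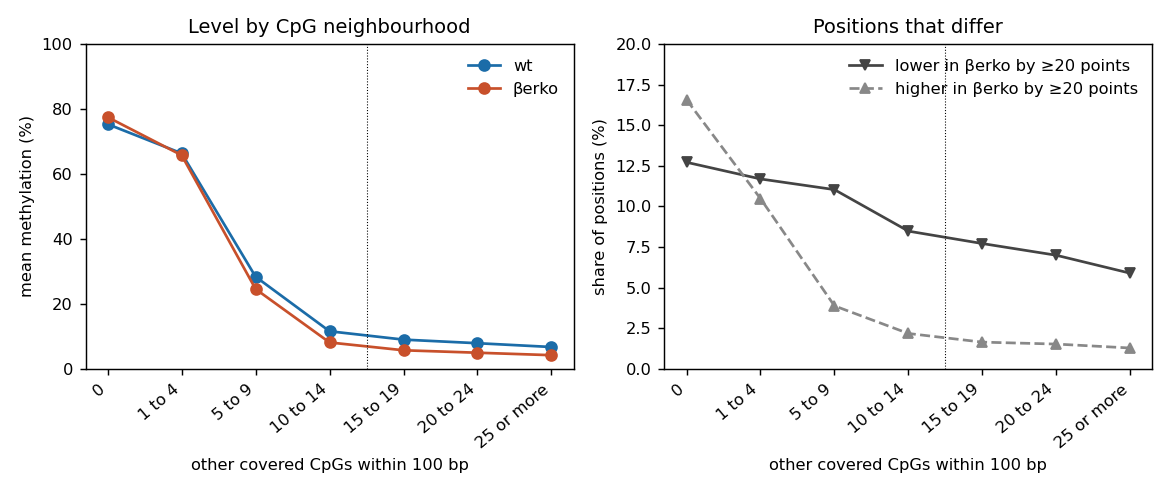
Left, mean methylation (%) of positions in wt (blue) and βerko (orange) MEFs by the number of other covered CpGs within 100 bp. Right, share of positions (%) that were lower (triangles down) or higher (triangles up) in βerko MEFs by at least 20 percentage points. The dotted line marks the limit of 15 others, to the right of which both means stay below 10 % and lower positions outnumber higher ones.

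Most members did not differ between the libraries by much. Of the 140445 positions, 91.1 % differed by less than 20 percentage points. Lower in βerko MEFs by at least 20 points were 10252 positions or 7.30 %, beside 10.4 % of all covered positions. Higher by at least 20 points were 2213 or 1.58 %, beside 6.81 % of all positions. Both shares were thus below those of the whole table, but the decreases outnumbered the increases 4.63 times among members and 1.53 times among all positions. Positions just below the limit came close to the members, with 3.88 times at 10 to 14 and 2.84 times at 5 to 9 neighbours.

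Most of the minority that was methylated in wt MEFs was less methylated in βerko MEFs. Of the 4682 members above 80 % in wt MEFs, 36.9 % were still above 80 % in βerko MEFs, 47.4 % lay between 20 and 80 %, and 15.7 % were below 20 %. These shares start from wt MEFs, and the reverse sorting is given further on. Outside dense neighbourhoods 81.3 % of such positions stayed above 80 % and 1.999 % were below 20 %. The share of positions above 80 % in wt that were below 20 % in βerko MEFs increased with the number of neighbours, from 1.11 % of isolated positions to 20.5 % of those with 25 or more. In the opposite direction, 47 of 122479 members below 20 % in wt MEFs were above 80 % in βerko MEFs.

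The same was seen at every level of methylation in wt MEFs of 20 % and above. Members at 40 to 60 % in wt MEFs had a mean of 23.98 % in βerko MEFs, and 66.6 % of them were lower by at least 20 points while 6.51 % were higher. Positions outside dense neighbourhoods with the same level in wt MEFs had a mean of 52.5 % in βerko MEFs, with 31.2 % lower and 38.0 % higher. At 80 % and above in wt MEFs, the means in βerko MEFs were 59.6 % for members and 87.8 % for the others. These values depend on which library sorts the positions. Sorted by the level in βerko MEFs, members at 40 to 60 % had a mean of 54.2 % in wt MEFs and the other positions one of 61.6 %, against means of 48.3 and 49.8 % in βerko MEFs. At 60 to 80 % in βerko MEFs the wt means were 71.1 and 72.0 % against 69.0 and 70.5 %, and at 80 % and above they were 85.7 and 89.1 % against 92.6 and 95.1 %. At 20 to 40 % in βerko MEFs the wt means were 40.1 and 46.5 % against 28.1 and 29.03 %. Below 20 % they were 4.09 and 7.299 % against 1.1995 and 1.997 %. Sorted in this way, members lay less far above their βerko level than the others in each group below 60 %. They lay slightly further above it than the others at 60 to 80 %, and both sets lay below it at 80 % and above.

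**Figure D2:**
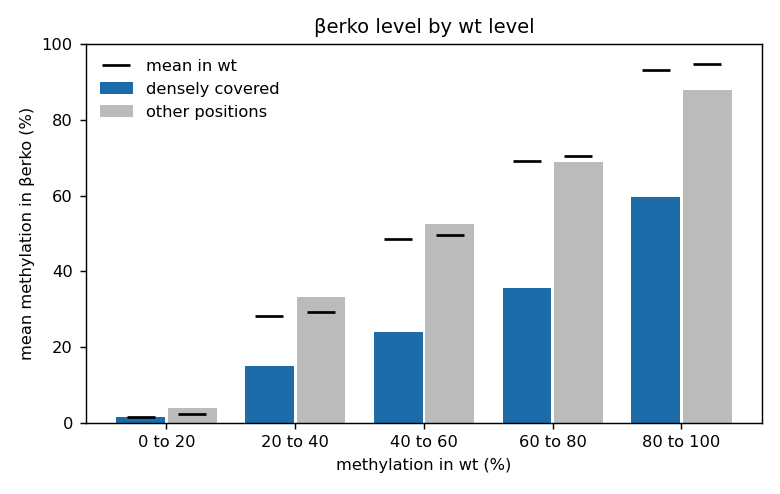
Mean methylation (%) in βerko MEFs (bars) of densely covered positions (blue) and all other positions (grey), grouped by methylation in wt MEFs (%). Black lines give the mean in wt MEFs of the same positions. From 20 % upwards the blue bars lie well below their lines, at 23.98 % for the group from 40 to 60 %, whereas the grey bar of that group reaches 52.5 %.

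These shares differed little between promoters and other places within the members. Of member CpGs between 20 and 80 % in wt MEFs, 57.2 % in promoters and 56.1 % outside promoters were lower by at least 20 points in βerko MEFs. Higher by as much were 5.19 and 5.97 %. For covered CpGs that were not members, the corresponding shares were 50.1 % lower and 12.9 % higher in promoters, and 24.1 % lower and 34.3 % higher outside them. These shares change when the level in βerko MEFs sorts the CpGs. Of CpGs between 20 and 80 % in βerko MEFs outside promoters, 39.6 % of members and 38.8 % of the rest were lower, and 16.4 and 18.4 % were higher. In promoters 30.6 and 36.6 % were lower, and 23.1 and 21.0 % were higher. Again by the level in wt MEFs, of member CpGs above 80 % there, 60.9 % in promoters and 56.3 % outside were lower, against 28.9 and 13.8 % of the CpGs that were not members.

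Members far from transcript starts were more methylated. Member CpGs within 100 bp of a start averaged 4.73 % in wt and 2.97 % in βerko MEFs, and those 2001 to 5000 bp away averaged 34.2 and 22.5 %. All covered CpGs at those distances averaged 9.71 and 7.50 %, and 70.8 and 68.3 %. By feature, members in coding exons had the highest means, 17.1 % in wt and 11.1 % in βerko MEFs, and 13.6 % of them were lower in βerko MEFs by at least 20 points. Members in untranslated exon sequence had the lowest, 5.06 and 3.09 %.

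Differentially methylated positions (DMPs) were counted by the study's criterion, which asks for more than 4 reads in each library, one of them below 20 % methylated and its counterpart above 80 %. Among members, 694 were hypomethylated DMPs, high in wt and low in βerko MEFs. They made up 0.494 % of the members (0.459 to 0.532 %), beside 0.700 % of all covered positions. Hypermethylated DMPs numbered 33, or 0.0235 % of the members (0.0167 to 0.0330 %), beside 0.237 %. Measured against the positions that could qualify by their level in wt MEFs, hypomethylated DMPs were 14.8 % of the members above 80 % (13.8 to 15.9 %), beside 2.15 % of all positions above 80 %. Hypermethylated DMPs were 0.0269 % of the members below 20 %, beside 0.472 % of all positions below 20 %. This order turns when the level in βerko MEFs sets the positions that could qualify. Hypomethylated DMPs were 0.538 % of the members and 1.31 % of all positions below 20 % in βerko MEFs, and hypermethylated DMPs were 1.46 and 0.752 % of those above 80 %.

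Read numbers were deposited for the DMPs, so that the depth of the other members is unknown. Hypomethylated DMPs among the members were read a median of 15 times in wt and 48.5 times in βerko MEFs, and 200 of them had fewer than 10 reads in wt MEFs against 40 in βerko MEFs. Over all hypomethylated DMPs the medians were 21 and 47 reads. The wt values at these positions are therefore the less precise ones, and the part of depth in the results was not tested. For each DMP the reads with and without methylation were set against each other by Fisher's exact test, two-sided, with a Benjamini-Hochberg adjustment over all 826937 positions. At an adjusted p-value of 0.05, 628 of the 694 hypomethylated and 21 of the 33 hypermethylated member DMPs passed. The DMPs had been chosen by these same read fractions, and before adjustment all 694 and all 33 were below 0.05 in this test. Whether a DMP passed thus depended largely on its number of reads. A pass, here and for the runs below, is no separate evidence of a difference. Over all covered positions, 0.642 % were hypomethylated and 0.212 % hypermethylated DMPs that passed. The hypermethylated member DMPs had a median of 12 reads in each library. PCR copies were not told apart by molecular identifiers, so reads are not all separate molecules, and the test compares 2 libraries, not genotypes.

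The 120633 member CpGs formed 7150 dense runs with a median of 15 CpGs over 110 bp. The longest had 112 CpGs, and 369 consisted of 1 CpG. In 6122 runs or 85.6 % the mean was below 20 % in both libraries, in 95 it was above 80 % in both, and in 365 it lay between 20 and 80 % in both. Lower in βerko MEFs by at least 20 points were 392 runs, or 5.48 %, and higher were 23, or 0.322 %. Among 68103 runs of at least 3 covered CpGs without a member, formed with the same gap, 7.93 % were lower and 4.42 % higher. In 262 of the 392 lower runs, and in 15 of the 23 higher ones, at least 80 % of the CpGs moved in the direction of the mean by at least 10 points each, so that the neighbourhood differed as a whole. Such whole differences were also found in 2847 of 5403 lower and 1128 of 3009 higher runs without a member. Runs without a member had a median of 4 CpGs against 15 for dense runs, and run size was not matched in these comparisons. From above 80 to below 20 % went 20 dense runs, and none went the other way. Among the runs without a member, 200 went from above 80 to below 20 % and 23 the other way.

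**Figure D3:**
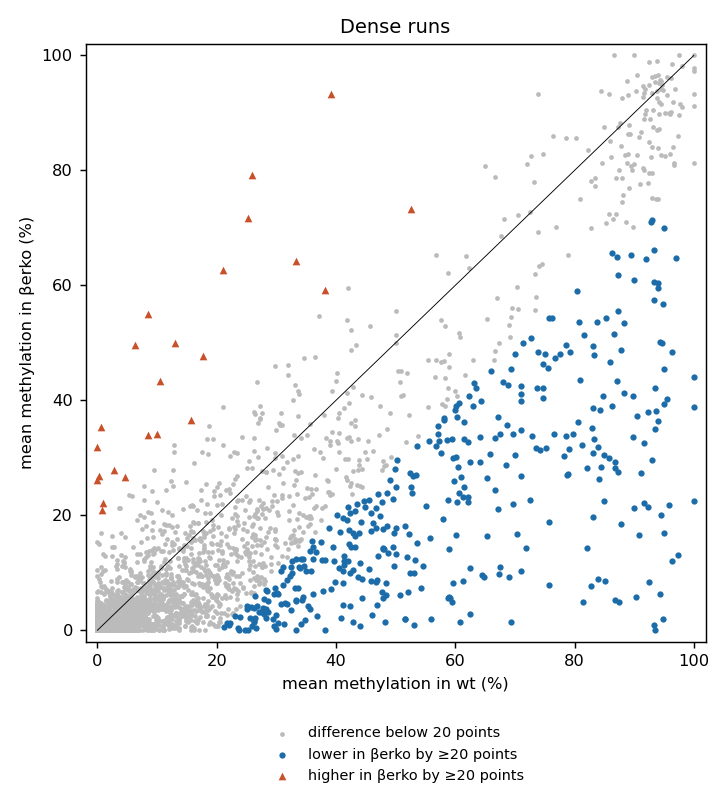
Mean methylation (%) of each of the 7150 dense runs in wt (x axis) and βerko MEFs (y axis). Blue points are the 392 runs lower in βerko MEFs by at least 20 percentage points, orange triangles the 23 higher ones, and grey points the others. Most runs crowd at the origin, 95 sit in the upper right corner, and the points below the diagonal fill the whole range of wt levels.

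The runs followed the positions in how they depended on the level in wt MEFs. Of 203 runs at 40 to 60 % in wt MEFs, 117 were lower by at least 20 points and 1 was higher. Of 213 runs at 80 % and above, 94 were lower, 20 of them to below 20 %, and 95 stayed above 80 %. Of 4337 runs without a member at 40 to 60 % in wt MEFs, 1029 were lower and 1010 higher. By the level in βerko MEFs, of 122 dense runs at 40 to 60 %, 52 or 42.6 % were lower and 6 or 4.92 % higher, against 34.3 and 8.41 % of 3712 runs without a member. At 60 to 80 % in βerko MEFs, 22.8 % of the dense runs were lower, against 12.8 % of the others. The order was reversed at lower βerko levels. At 20 to 40 %, 35.3 % of 340 dense runs were lower against 37.6 % of the others, and below 20 %, 3.17 % of 6527 against 8.26 %.

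Hypomethylated DMPs were spread unevenly over the runs. By the criterion they lie where wt MEFs were above 80 %, they are counted per strand, and neighbouring positions share reads. The 694 lay in 250 runs, of which 143 had exactly 1, while 29 runs with at least 5 each held 346. Runs that were lower by at least 20 points held 602 of the 694, but 223 of the 392 lower runs had no DMP at all. The 33 hypermethylated DMPs lay in 30 runs, and 3 of them in runs that were higher by at least 20 points.

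The run with the largest decrease was the intergenic one near Foxc1 whose sequence stands first above. Its 21 CpGs ranged from 80 to 100 % in wt MEFs with a median of 96.8 %, and every one of them was at 0 % in βerko MEFs. The libraries did not overlap at any CpG. The run held 23 hypomethylated DMPs, counted per strand, all of which passed the test, with medians of 12 (wt) and 70 reads (βerko). The next were both in Hoxd9, a homeobox gene that patterns the posterior body axis and limbs. The run in its untranslated sequence at chr2:74535968-74536052 averaged 94.8 % ± 6.56 in wt and 1.94 % ± 2.22 in βerko MEFs (SD over CpGs, n = 11 CpGs). The run at chr2:74536224-74536422 in the coding exon averaged 93.3 % ± 9.61 in wt and 0.956 % ± 1.35 in βerko MEFs (n = 20 CpGs). All 21 hypomethylated DMPs of this pair of runs passed the test.

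The other 7 of the 10 largest decreases among runs of at least 10 CpGs were at genes with various roles. In Hoxa5, another patterning homeobox gene that here overlaps the annotation of Hoxa3, the run at chr6:52154035-52154240 in coding sequence went from 94.5 % ± 5.75 to 20.0 % ± 21.9 (n = 25 CpGs). Its CpGs in βerko MEFs reached from 2.53 to 80 % with a median of 11.4 %, and the highest lay at one end of the run. Irx2, an Iroquois homeobox gene, had a run at chr13:72768906-72769025 in coding sequence that went from 95.05 % ± 7.87 to 16.9 % ± 2.02 (n = 18 CpGs), with no CpG above 21.05 % in βerko MEFs. In Shox2, a homeobox gene of limb and heart development, the run at chr3:66777504-66777593 mostly in untranslated exon sequence went from 96.3 to 12.1 % (n = 16 CpGs). Its 14 hypomethylated DMPs had medians of 6 (wt) and 37.5 reads (βerko), the lowest wt median of the 10 runs. Esrrg, which encodes the orphan nuclear receptor oestrogen-related receptor γ, had an intronic run at chr1:189475800-189475912, 42225 bp from the nearest transcript start, that went from 81.3 % ± 17.9 to 4.90 % ± 15.2 (n = 19 CpGs). The median of its CpGs was 87.5 % in wt and 0 % in βerko MEFs, and 1 CpG was higher in βerko MEFs.

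The remaining 3 were in genes of other kinds. In Obsl1, which encodes a cytoskeletal adaptor, the run at chr1:75484245-75484336 in a coding exon and promoter went from 90.3 to 5.73 % (n = 13 CpGs). In Sema4b, which encodes a membrane-bound semaphorin, the run at chr7:87331737-87331838 at the transcript start went from 84.0 to 8.95 % (n = 13 CpGs), and 3 of its 4 DMPs passed the test. The run of Fam59b at chr5:30440983-30441237 in coding sequence went from 90.9 to 16.7 % (n = 39 CpGs), and all of its 24 DMPs passed. Across the 10 runs, the highest value of a single CpG in βerko MEFs was 80 %, and the lowest in wt MEFs was 46.2 %.

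Among the other runs that went from above 80 to below 20 %, Egr3, an immediate early transcription factor gene, had 4 CpGs in an intron at 94.4 % in wt and 6.33 % in βerko MEFs. Nkx6-2, a homeobox gene of the nervous system, had one run of 3 CpGs that went from 82.7 to 7.73 % and one of 26 CpGs that went from 82.2 to 14.4 %. All 16 hypomethylated DMPs of the Nkx6-2 runs passed the test.

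Increases were fewer and smaller, and 8 of the 10 largest ones among runs of at least 10 CpGs held no DMP. The first was in the coding sequence of Prdm6, which encodes a repressor of transcription in smooth muscle, where 10 CpGs had 26.3 to 70.0 % in wt MEFs with a median of 35.1 %, and 73.5 to 100 % in βerko MEFs with a median of 93.7 %. The libraries did not overlap there. In the run of Gata2, a haematopoietic transcription factor gene, 16 CpGs averaged 25.9 % ± 22.6 in wt and 79.1 % ± 20.6 in βerko MEFs. The ranges of the Gata2 CpGs overlapped, from 0 to 80 % in wt and from 38.6 to 100 % in βerko MEFs, and both of its hypermethylated DMPs passed the test, with medians of 42 (wt) and 37 reads (βerko). Hoxa11, which acts in limb and kidney development, had a run at chr6:52195052-52195236 in a coding exon that averaged 0.568 % ± 2.67 in wt and 35.3 % ± 27.9 in βerko MEFs (n = 22 CpGs). Its single CpGs in βerko MEFs were uneven, from 1.92 to 96.7 % with a median of 35.2 %, and 1 hypermethylated DMP passed. Hoxa11 thus went the other way from the Hoxa5 and Hoxd9 runs.

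The other increases started from levels between 0.253 and 52.6 % in wt MEFs. Pex5l, which encodes a regulator of pacemaker channels, had 47 CpGs at its transcript start that averaged 10.6 % in wt and 43.4 % in βerko MEFs. Elavl4, which encodes a neuronal RNA-binding protein, had 10 CpGs that averaged 0.253 and 26.8 %. Tbx2, a T-box repressor gene, had 14 CpGs in coding sequence at 38.2 and 59.3 %, of which 71.4 % were higher and 14.3 % lower by at least 10 points. Oprd1, the δ opioid receptor gene, went from 52.6 to 73.2 % over 13 CpGs. The run at 1700101I19Rik and Fam123c went from 15.7 to 36.6 % over 19 CpGs. The final pair were intergenic. One on chromosome 12, 103673 bp from the nearest transcript start, went from 6.36 to 49.6 % over 10 CpGs, and one 11945 bp from the start of BC034090 went from 0.997 to 22.1 % over 19 CpGs.

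**Figure D4:**
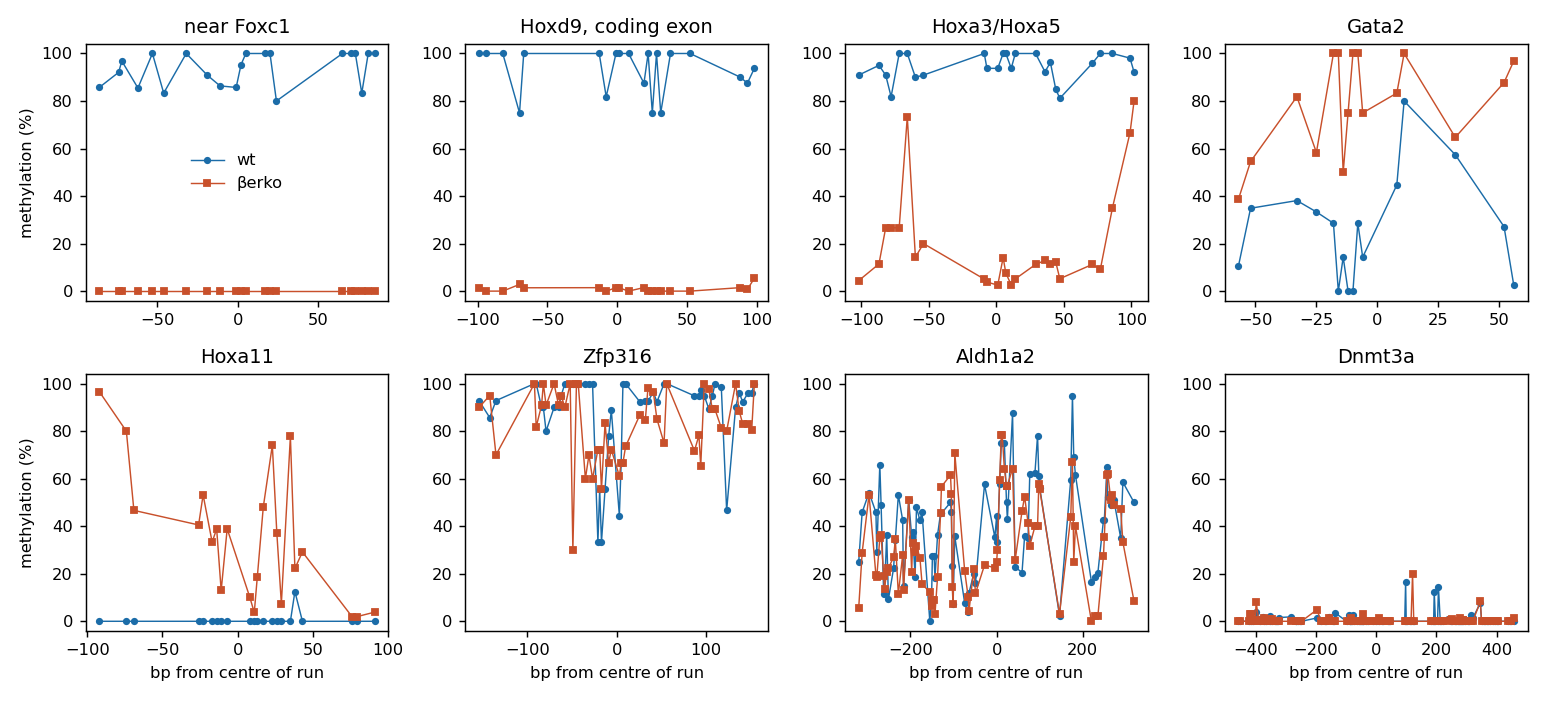
Methylation (%) of single CpGs in wt (blue circles) and βerko MEFs (orange squares) along 8 dense runs, by distance in bp from the centre of the run. Near Foxc1 and in Hoxd9 the libraries are far apart at every CpG, in Hoxa5 at most of them but not at one end, where βerko MEFs reach 80 %, Gata2 and Hoxa11 are higher in βerko MEFs, and the Zfp316, Aldh1a2 and Dnmt3a runs follow each other at high, intermediate and low levels.

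Dense runs that stayed methylated lay mostly in coding exons. Of the 95 runs above 80 % in both libraries, 67 or 70.5 % were mainly in coding exons and 18 or 18.9 % mainly in promoters. Of the 6122 runs below 20 % in both, 17.4 % were mainly in coding exons and 63.8 % mainly in promoters. Methylated runs were also shorter, with a median of 8 against 15 CpGs, and had a lower ratio of observed to expected CpGs, 0.912 against 0.983. The largest of them was in the coding exon of Zfp316, where 51 CpGs averaged 88.4 % in wt and 82.7 % in βerko MEFs. Rbm46 and Rbmxl2, which encode RNA-binding proteins of germ cells, followed with 39 CpGs at 89.5 and 80.8 % in an intron, and 33 CpGs at 93.2 and 87.5 % in coding sequence. Dact3, an antagonist of Wnt signalling, had 32 CpGs at 94.5 and 91.5 %. Sh2b3, an adaptor of cytokine receptors, had 30 CpGs at 91.9 and 89.8 %. All 5 were slightly lower in βerko MEFs, with differences from -8.67 to -2.12 percentage points, and the CpGs of each overlapped widely between the libraries.

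Partly methylated runs were more varied. Aldh1a2, which encodes an enzyme of retinoic acid synthesis, had 79 CpGs around its transcript start that averaged 40.1 % in wt and 32.9 % in βerko MEFs. Single CpGs of this run reached from 0 to 94.97 % in wt and from 0 to 78.6 % in βerko MEFs. The intergenic run on chromosome 17 had 78 CpGs that averaged 27.2 % in wt and 36.7 % in βerko MEFs, and 53.8 % of them were higher in βerko MEFs by at least 10 points. Whether this sequence occurs in several copies, whose reads its values would then mix, was not tested. Sobp had 65 CpGs in coding sequence at 43.4 and 49.5 %, and its 1 hypermethylated DMP, with 5 (wt) and 12 reads (βerko), did not pass the test. Cdh4, which encodes a cadherin, had 58 CpGs at its start that averaged 68.0 and 43.1 %. Pnpla8, which encodes a phospholipase, had 57 CpGs in an intron that averaged 60.9 and 26.6 %, with both of its hypomethylated DMPs past the test. Of these 5 large runs, 3 were lower and 2 higher in βerko MEFs. The CpGs within a run also differed among themselves. Over runs of at least 10 CpGs, the median SD among the CpGs of a run was 22.3 points in wt and 17.7 in βerko MEFs for the 241 lower runs, and 22.5 and 20.3 for 344 runs that neither differed by 20 points nor were low or high in both. For the 4001 runs low in both, whose level leaves little room, it was 1.00 and 0.713.

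The runs with the most CpGs were unmethylated. Dnmt3a, one of the de novo DNA methyltransferase genes, had 112 CpGs around a transcript start that averaged 0.758 % in wt and 0.575 % in βerko MEFs, with no CpG above 20 %. Zfp777 had 107 CpGs at 0.290 and 0.517 %. The run upstream of Ccdc64 had 101 CpGs at 7.38 and 5.08 %, of which single CpGs reached 71.4 % in wt and 82.4 % in βerko MEFs. Among 1010 runs with at least 30 CpGs, which averaged 7.80 % in wt and 4.84 % in βerko MEFs, 54 or 5.35 % were lower by at least 20 points and 1 was higher. Of the 1322 runs with fewer than 5 CpGs, which averaged 10.2 and 6.72 %, 94 or 7.11 % were lower and 10 higher.

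Gene families set out as lists, which were chosen with earlier results of these data known, differed in how many of their runs were methylated. Of 24 runs at 20 of 39 Hox genes, 9 were below 20 % in both libraries, beside 85.6 % of all dense runs. In βerko MEFs 5 were lower by at least 20 points and 1, Hoxa11, was higher, beside 5.48 and 0.322 % of all dense runs. A run below 20 % in wt MEFs cannot be lower by 20 points. The share of lower runs therefore depends on the level in wt MEFs. For dense runs at 20 to 40, 40 to 60, 60 to 80, and 80 % and above there, it was 21.4, 57.6, 69.8 and 44.1 %. The lists were not compared with other runs at a matched level. The median difference was -7.97 points over the Hox runs and -0.14 over all runs. Besides Hoxd9 and Hoxa5, the lower Hox runs were both in Hoxd1, where 27 CpGs of the coding exon went from 37.4 to 15.3 % and 3 CpGs at the start from 42.4 to 4.17 %. Not all Hox runs with methylation were lower. The run of Hoxa2 and Hoxa3 had 94.0 % in wt and 96.6 % in βerko MEFs over 4 CpGs, and Hoxd3 had 42.0 and 59.6 % over 11 CpGs.

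Other developmental transcription factor genes, defined by the family names Pax, Lhx, Nkx, Tbx, Fox, Gata, Sox, Irx and the like, had 145 runs at 93 of 154 genes. Below 20 % in both libraries were 82 of these runs, 22 were lower by at least 20 points and 2, in Gata2 and Tbx2, were higher. These shares too stand beside 85.6, 5.48 and 0.322 % of all dense runs, and the median difference was -3.45 points. As for the Hox runs, the share of lower runs depends on the level in wt MEFs, which was not matched. The most CpGs among the lower ones were in Gata6, a regulator of endoderm and heart, where 81 CpGs in coding sequence went from 75.7 % ± 16.5 to 7.87 % ± 12.5 and all 28 hypomethylated DMPs passed the test. In Tbx1, a regulator of pharyngeal development, 72 CpGs went from 48.1 to 14.1 %, while another Tbx1 run 84 bp from a start had 58.8 % in wt and 62.1 % in βerko MEFs over 18 CpGs. Six2, which maintains kidney progenitors, had 34 CpGs at its start that went from 42.9 to 1.46 %. Irx5 stayed methylated, with 93.8 and 87.0 % over 17 CpGs, and Foxl1 had 72.6 and 82.5 % over 19 CpGs.

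Imprinted genes, of which certain stretches but not all carry methylation on 1 parental allele, had 11 runs at 8 of 40 listed genes. Of these runs, 5 were below 20 % in both libraries and 3 were lower by at least 20 points, beside 85.6 and 5.48 % of all dense runs. Here too the level in wt MEFs, on which the share of lower runs depends, was not matched. Grb10, which encodes an adaptor of growth factor receptors, had 34 CpGs at one start that went from 83.1 % ± 16.9 to 49.5 % ± 19.6, and 17 CpGs at another that had 29.8 and 30.8 %. Cdkn1c, which encodes an inhibitor of cyclin-dependent kinases, went from 87.0 to 43.3 % over 11 CpGs in coding sequence. Its 1 hypomethylated DMP had 5 (wt) and 8 reads (βerko) and did not pass the test. Dlk1, which encodes a membrane protein of the Notch ligand type, went from 47.8 to 5.64 % over 3 CpGs. Igf2, a growth factor gene, had 36.4 and 31.6 % over 15 CpGs, and Plagl1, a zinc finger gene, had 20.8 and 21.9 % over 9 CpGs. Parental alleles were not separated in these data.

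Germline genes had 6 runs at 6 of 30 listed genes, of which 5 were above 20 % in wt MEFs. Below 20 % in both libraries was 1 run, and 1 was lower by at least 20 points, beside 85.6 and 5.48 % of all dense runs. The level in wt MEFs, on which the share of lower runs depends, was not matched for this list either. Ddx4, the Vasa helicase gene of germ cells, had 27 CpGs at its start with 96.5 % ± 5.96 in wt and 91.9 % ± 10.6 in βerko MEFs. Tdrd1, of the piRNA pathway, had 86.9 and 72.5 % over 14 CpGs, and Dmrtb1 had 91.4 and 92.9 % at 1 CpG. Dazl, which encodes a germ cell RNA-binding protein, was the one that was lower by at least 20 points, from 40.6 to 17.1 % over 26 CpGs. Its 1 hypomethylated DMP had 6 (wt) and 10 reads (βerko) and did not pass the test. All 12 runs at 8 of 16 housekeeping genes were below 20 % in both libraries, a state that 85.6 % of all dense runs shared, with means of 0.216 % in wt and 0.122 % in βerko MEFs. The 7 runs at 6 of 17 listed genes for enzymes of DNA methylation and demethylation were all below 20 % as well, with means of 0.515 and 0.304 %. Of 5 oestrogen receptor and related receptor genes, Esrrg was the one with dense runs, the intronic one given above and one below 20 % in both libraries. Esr2, the gene disrupted in βerko MEFs, had no dense run, and methylation does not check whether a gene was disrupted.

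The differences of whole runs extended beyond the dense stretch. Around the 241 lower runs of at least 10 CpGs, covered CpGs outside the run were averaged by distance. The median difference was -31.0 points in the runs themselves, -26.9 points 1 to 100 bp away, -22.0 points 251 to 500 bp away and -6.00 points 1001 to 2000 bp away. Of the runs with covered CpGs 251 to 500 bp away, 55.1 % had a flank lower by at least 20 points, and at 1001 to 2000 bp 23.8 %. Around runs above 80 % in both libraries, 13.8 % of 29 and 0 % of 21 runs had such a flank at these distances. At 101 to 250 bp 21.2 % of 33 of them did, against 66.3 % of 196 lower runs. Flanks of runs below 20 % in both were mostly too low to differ by as much at 251 to 500 bp, with a median of 0.778 % in wt MEFs. At 1001 to 2000 bp their median was 31.1 % in wt MEFs, and 12.9 % of 1429 such runs had a flank lower by at least 20 points. The 10 higher runs had a median of 29.7 points inside, 26.6 points 1 to 100 bp away and 8.77 points 1001 to 2000 bp away. Flanks nearest to a run share reads and fragments with it and are not separate measurements. Of 1422 pairs of neighbouring dense runs at most 1000 bp apart, 105 had a lower run, and in 25 of these pairs both runs were lower. No pair held a lower and a higher run.

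**Figure D5:**
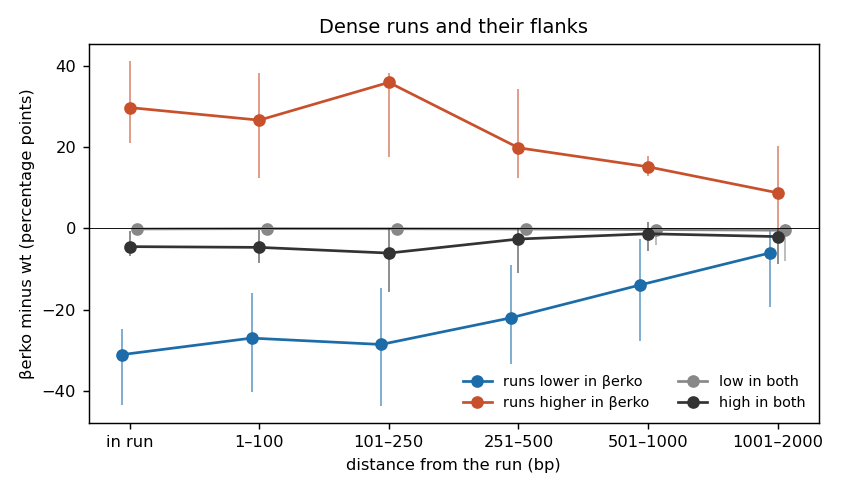
Median difference between βerko and wt MEFs (percentage points) in dense runs of at least 10 CpGs and in covered CpGs at growing distance (bp) from them. Vertical lines give the middle 50 % of the runs, for runs lower (blue), higher (orange), low in both (light grey) and high in both libraries (dark grey). The blue line shrinks from -31.0 points in the run to -6.00 points at 1001 to 2000 bp, while the grey lines stay between 0 and -6.04 points.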

How the data were processed

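The authors made 1 RRBS library of wt and 1 of βerko MEFs, each from pooled DNA of 3 batches, with MspI fragments of 160 to 340 bp, 2 rounds of bisulfite conversion and 19 PCR cycles. Mapping was done on the Genomatix Mining Station, and the submitters' processing notes name CASAVA 1.4 and the build mm9. For cytosines covered in both libraries the authors deposited percent methylation without read depth, and for DMPs also the read counts, annotated with RegionMiner. That annotation was not used.

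Cytosines on the minus strand were merged with their CpG, and every covered position was a CpG cytosine of NCBIM37. Neighbours were counted within 100 bp, and member CpGs with gaps of at most 100 bp were joined to runs whose level is the mean over CpGs. Features came from GENCODE models on NCBIM37. A run was named after genes that it overlapped or whose transcript start lay within 500 bp downstream or 100 bp upstream of it, and otherwise after the nearest start of a coding gene. Named were the 10 largest decreases and increases among runs of at least 10 CpGs, the 5 largest runs above 80 % and the 5 between 20 and 80 % in both libraries, the 3 with the most CpGs, and runs of listed genes that were changed or not below 20 % in both. Egr3 was chosen after its values were seen. Members and lists were chosen with earlier results of these data known.

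Reads at DMPs were tested by Fisher's exact test, two-sided and adjusted by Benjamini-Hochberg over all positions with untested ones at a p-value of 1. No test between genotypes was possible with 1 library each. The procedures were tested on simulated data with seed 1. Calculations used SciPy 1.17.1, pandas 2.3.3, NumPy 2.4.6 and pysam 0.24.0 in Python 3.11.15, with plots from matplotlib 3.10.9. Alternatives were tried for the number of neighbours, the window, merged strands, chromosomes, reads, methylation limits, gaps, run definition and adjustment.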

Additional observations from a re-analysis of the deposited data

How the results depend on the processing

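The direction of each result, fewer methylated positions and more decreases than increases in βerko MEFs, was the same under every alternative run, and 19 of 66 values stayed close to those reported. With at least 10 other CpGs, 85.3 % of positions in wt and 90.02 % in βerko MEFs were below 20 %, 4.53 and 2.55 % above 80 %, and there were 1574 hypomethylated and 83 hypermethylated DMPs and 857 lower and 74 higher runs. With at least 20 others these were 88.3, 92.6, 2.72 and 1.27 %, 243 and 15 DMPs, and 176 and 13 runs. A window of 50 bp gave 89.2, 93.4, 2.28 and 1.10 % with 61 and 3 DMPs, and one of 200 bp gave 86.1, 90.8, 4.15 and 2.24 % with 1681 and 88 DMPs. These alternatives change the number of members, from 19154 to 294075. With 1 value per CpG the shares were 87.6, 92.0, 3.18 and 1.505 %. Limits of 10 and 90 % left 192 and 10 DMPs. With at least 10 reads, 15 hypermethylated DMPs were left, of which 13 passed the test. Bonferroni correction left 373 hypomethylated and 6 hypermethylated DMPs, and adjustment over the tested DMPs alone passed all 33 hypermethylated ones. A change of at least 10 points was found in 794 lower and 86 higher runs, and one of at least 50 points in 74 and 2. Runs of at least 10 CpGs included 241 lower and 10 higher ones. Higher runs numbered 37 with a gap of 50 bp and 15 where 80 % of the CpGs had to move together. No paired analysis was possible because there is 1 library per cell type. Differences between cultures cannot be estimated, and the depth of positions other than DMPs is unknown.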

Other observations

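Dense neighbourhoods on chromosome 7 had the highest mean methylation of any chromosome, 16.1 % in wt and 11.2 % in βerko MEFs over 6645 CpGs, whereas the other chromosomes ranged from 5.36 to 9.77 % in wt MEFs. It also held the most runs above 80 % in both libraries, 14 of 95. The runs of chromosome 7 were not evenly methylated. Between 110 and 120 Mb, 27 runs averaged 25.1 % in wt and 21.0 % in βerko MEFs, and between 90 and 100 Mb, 16 runs averaged 0.279 and 0.192 %. The share of runs lower by at least 20 points was 6.68 % on chromosome 7, and ranged from 2.52 % on chromosome 10 to 7.94 % on chromosome 12.

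Chromosome X, one copy of which is methylated at many CpG islands in female cells, had 1067 member CpGs in 86 runs. Their mean was 8.58 % in wt and 5.86 % in βerko MEFs, within the range of the other chromosomes, while its median run, at 0.321 and 0.214 %, was lower than that of each autosome. Of these runs, 3 were lower by at least 20 points and none was higher.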
